A study of Homo sapiens with 4 samples.

Results

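Amino acids enter and leave cells through membrane transporters of the solute carrier (SLC) superfamily. The 40 genes described here are the SLC1, SLC7, SLC36, SLC38 and SLC43 families, without the cystine exchanger SLC7A11, together with SLC3A2, SLC6A9 and SLC6A15. They were taken by gene name from the 58735 genes of the deposited tables, and all 40 matched a single gene ID. The choice was made with earlier results of these data known, so counts of them beside all genes are descriptions and no test. RNA-seq was done on 4 bulk libraries of cells labelled Huh7, an established human hepatoma line, of which 2 had NME7 targeted by a hairpin RNA (shNME7) and 2 received a control hairpin (shCtrl). NME7 encodes a nucleoside diphosphate kinase family protein found at the gamma-tubulin ring complex. No label gives the promoter or sequence of a hairpin, the time after its introduction, or whether replicates were separate cultures or clones, and a p-value here weighs a difference against library-to-library spread that may be only technical.

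SLC transporters work as uniporters, as exchangers that trade 1 amino acid for another, or by coupling to sodium or proton gradients. SLC3A2 is the heavy chain that carries several SLC7 light chains to the plasma membrane. Expression of several of these genes is known to increase when amino acids are scarce, through the kinase GCN2 and the transcription factor ATF4, and amino acid supply is read by the growth-controlling kinase complex mTORC1 at the lysosome. In liver, system A and system N carriers of the SLC38 family move alanine and glutamine, and SLC7A2 and SLC38A4 are known as hepatocyte transporters.

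NME7 stood at 0.835 and 0.626 FPKM in shNME7 1 and 2, against 3.64 and 3.93 FPKM in shCtrl 1 and 2. FPKM is fragments per kilobase of exon, scaled by a size factor for each library. The NME7 mean was 5.18-fold lower in shNME7, which passed in limma-voom (adjusted p 0.00123) and not in limma-trend (adjusted p 0.310). The libraries held 14877906 to 16991397 fragments recovered from the deposited values. Transcripts that define hepatocytes were at or near 0: the 9 markers ALB, AFP, APOA1, APOB, TTR, SERPINA1, FGB, HNF4A and TF summed to 0.110 and 0.0858 FPKM in shNME7 1 and 2, against 0.0564 and 0.106 FPKM in shCtrl 1 and 2, and 3 of them, APOA1, APOB and FGB, had 0 fragments in all libraries. The libraries thus went against the labelled line, and what cells they hold was not tested. Fibroblast markers summed to 98.7 and 97.3 FPKM in shNME7, against 103 and 92.1 FPKM in shCtrl, with 4 of 6 at 1 FPKM or more, mainly COL3A1. LUM stood at 9.88 to 14.5 FPKM, COL1A1 at 8.44 to 10.8 FPKM and PDGFRB at 1.24 to 1.77 FPKM over all libraries. COL1A2 and DCN were near 0, with COL1A2 at 2 fragments in shCtrl 1 only and DCN at 0.0311 to 0.0734 FPKM. Leukocyte markers stayed at or under 0.394 FPKM in sum with PTPRC and CD3E at 0, and endothelial markers summed to 2.81 and 3.47 FPKM in shNME7 against 2.29 and 1.94 FPKM in shCtrl, with KDR at 0. The part of these marker levels in the results was not tested.

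Of the 40 transporter genes, 24 had a mean of at least 1 FPKM over the 4 libraries and were tested, and 20 of these 24 had a lower mean in shNME7, as did 47.8% of all 12866 tested genes. The libraries of the 2 groups did not overlap, with shNME7 the lower, for 14 of the 24, where this held for 18.4% of all tested genes. Both lay above for 1 of the 24, SLC7A6, against 17.8% of all tested genes. The median log2 difference was -0.23 over the 24 transporters and 0.01 over all tested genes. Of the other 16, 6 had no fragment in any library, 6 had under 5 fragments over the 4 libraries and 4 had 18 to 226. The filter used the mean over all 4 libraries, so a gene high in only 1 group could still pass through it.

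No transporter gene passed in limma-trend, or in limma-voom with its standard TMM scaling. limma-trend on log2(FPKM + 1), with p-values adjusted over all tested genes by the Benjamini-Hochberg method, called 0 of the 24 transporters and 0.0% of all genes. The smallest adjusted p among them was 0.440, for SLC1A4. At an unadjusted p under 0.05 there were 8 transporters, all lower in shNME7, where 3.22% of all tested genes were lower at that level. limma-voom on the recovered fragments called 0 of 27 transporters, 10 of which had an unadjusted p under 0.05, all 10 lower, where 4.37% of all tested genes were lower at that level. That test called 0.106% of 15112 genes, 0.0926% as lower, and its smallest adjusted p for a transporter was 0.0712, again for SLC1A4. Differences below are therefore given as values with their errors and not as changes. With 2 libraries a group, an exact permutation test of a single gene cannot give a two-sided p below 0.333, and none was used.

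**Figure D1:**
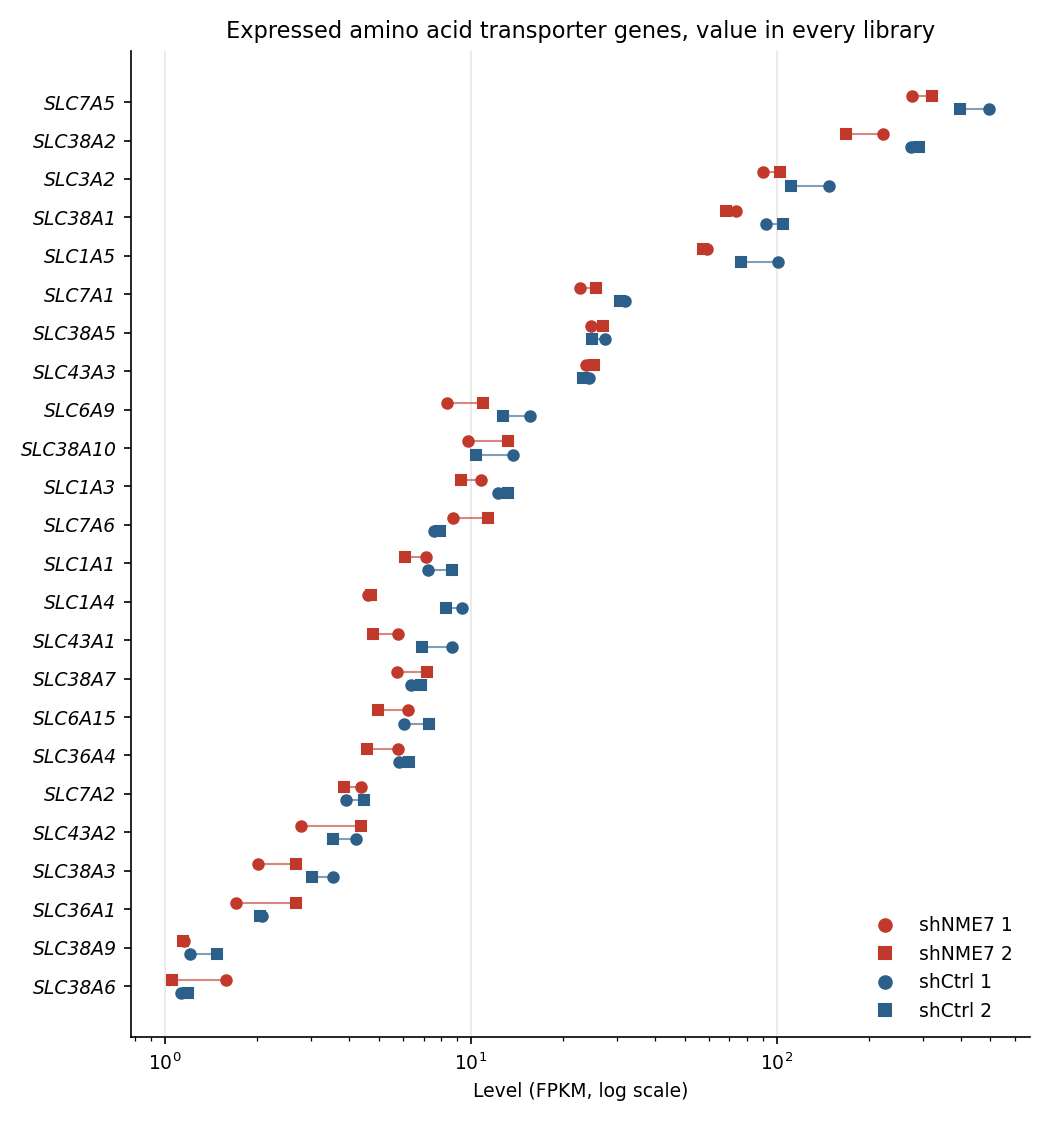
Level of each of the 24 tested transporter genes in FPKM on a log axis, with a point for every library (red shNME7, blue shCtrl, circles replicate 1, squares replicate 2) and genes ordered by their mean over the 4 libraries. The red points lie left of the blue points without overlap for 14 genes, among them the 6 with the highest levels, and right of them only for SLC7A6.

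Transporter transcripts were dominated by a few genes, shown in the plot of levels in every library. SLC7A5, SLC38A2, SLC3A2, SLC38A1 and SLC1A5 together made 83.3% of the summed FPKM of the 40 genes. The sum itself stood at 882 and 892 FPKM in shNME7 1 and 2, against 1304 and 1166 FPKM in shCtrl 1 and 2, a ratio of group means of 0.718. The shNME7 sums lay close together and below both shCtrl sums. The share of each of these 5 genes overlapped between the groups. SLC7A5 contributed 31.5% and 36.2% in shNME7 libraries, against 37.9% and 34.1% in shCtrl libraries, and SLC38A2 contributed 25.2% and 18.9% in shNME7, against 21.1% and 25.0% in shCtrl. The other 35 genes together held 18.03% and 19.3% of the sum in shNME7, against 14.8% and 15.8% in shCtrl, with no overlap. In bulk RNA, fewer cells expressing a gene and less RNA per cell cannot be told apart.

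**Figure D2:**
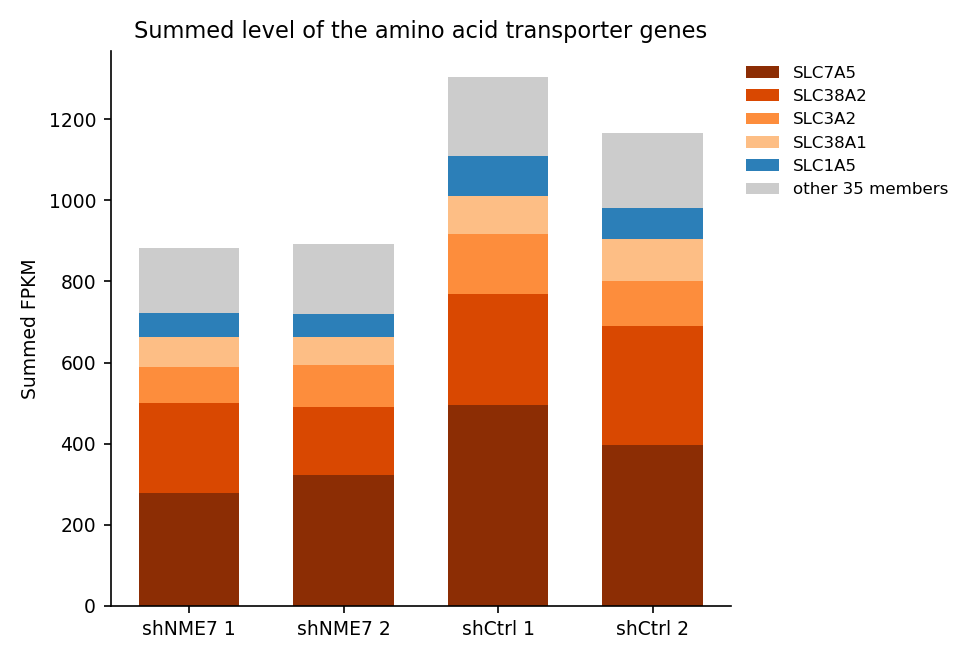
Summed FPKM of the 40 transporter genes in each library as stacked bars that start at 0, with the 5 most abundant genes in colour and the other 35 in grey. The shNME7 bars reach 882 and 892 FPKM and the shCtrl bars 1304 and 1166 FPKM.

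SLC7A5 (ENSG00000103257, chromosome 16, 87830023 to 87869488, minus strand of GRCh38) encodes LAT1, the light chain that exchanges large neutral amino acids such as leucine. It was the most abundant transporter transcript, at 277 and 323 FPKM in shNME7 1 and 2, against 494 and 397 FPKM in shCtrl 1 and 2. Both shNME7 libraries were below both shCtrl libraries, and the shCtrl libraries differed from each other by more than the shNME7 libraries did. The means were 300.1 ± 32.1 FPKM in shNME7 and 446 ± 68.5 FPKM in shCtrl (SD, n = 2 each), a log2 difference of -0.57 (SE 0.18, limma-trend adjusted p 0.728). A pseudogene, SLC7A5P1, resembles part of the gene and could share its reads, but it held only 18 to 37 fragments per library.

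SLC3A2 (ENSG00000168003), the heavy chain that pairs with SLC7A5, stood at 90.2 and 102 FPKM in shNME7, against 149 and 111 FPKM in shCtrl. The higher shNME7 library and the lower shCtrl library were close, and the log2 difference of -0.42 (SE 0.19) went with a limma-trend adjusted p of 0.773. Without shCtrl 1 the difference was -0.21, and without shCtrl 2 it was -0.62. The ratio of SLC7A5 to SLC3A2, both per length, was 3.08 and 3.15 in shNME7, against 3.32 and 3.57 in shCtrl, and both shNME7 ratios were the lower.

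Of the other light chains among the members, 1 was expressed at 1 FPKM or more. SLC7A6 (ENSG00000103064), a light chain that exchanges cationic for neutral amino acids with sodium, was the only tested transporter with both shNME7 libraries above both shCtrl libraries, at 8.71 and 11.3 FPKM in shNME7, against 7.56 and 7.92 FPKM in shCtrl. Its log2 difference was 0.32 (SE 0.16, limma-trend adjusted p 0.795), and it was 0.15 without shNME7 2 and 0.50 without shNME7 1. Of its exon bases 44.4% overlap exons of SLC7A6OS on the opposite strand, itself at 2.35 and 3.54 FPKM in shNME7 and 2.45 and 1.74 FPKM in shCtrl. Whether the authors counted by strand is not given in the sources used here, so reads of the pair cannot be told apart and the value is uncertain. The ratio of SLC7A5 to SLC7A6 was 31.9 and 28.5 in shNME7, against 65.4 and 50.2 in shCtrl.

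SLC7A8, another light chain for large neutral amino acids, stood at 0.455 and 0.629 FPKM in shNME7, against 0.545 and 0.714 FPKM in shCtrl, far under SLC7A5. SLC7A7, the light chain for cationic amino acid efflux in epithelia, had 20 and 16 fragments in shNME7 and 9 in each shCtrl library. It was tested in limma-voom only, where the log2 difference was 0.93 (SE 0.53, adjusted p 0.697). SLC7A9, SLC7A10 and SLC7A13 had 0 to 3 fragments in any library.

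The largest difference among the 24 belonged to SLC1A4 (ENSG00000115902, chromosome 2, 64988477 to 65023865, plus strand). It encodes a sodium-dependent exchanger of alanine, serine, cysteine and threonine. SLC1A4 stood at 4.62 and 4.72 FPKM in shNME7 1 and 2, against 9.34 and 8.28 FPKM in shCtrl 1 and 2. The libraries of each group lay close together, and the gap between the groups was wider than either pair. The shNME7 mean was 4.67 ± 0.0677 FPKM and the shCtrl mean 8.81 ± 0.746 FPKM, 1.89-fold lower in shNME7, from 482 and 556 fragments in shNME7 and 1031 and 927 in shCtrl. On the log2 scale the difference was -0.79 (SE 0.14, limma-trend adjusted p 0.440). It passed in 5 of 18 alternatives, 4 of which left out an shNME7 library and 1 of which used upper-quartile scaling in limma-voom (adjusted p 0.0380). In limma-trend the adjusted p was 0.00686 without shNME7 1 and 0.00799 without shNME7 2. In limma-voom it was 0.00473 without shNME7 1 and 0.0159 without shNME7 2. Over all 18 alternatives it ranged from 0.00473 to 0.629.

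SLC1A5 (ENSG00000105281, chromosome 19, 46774883 to 46788594, minus strand), the related exchanger best known for glutamine uptake, stood at 59.0 and 57.6 FPKM in shNME7, against 101 and 76.2 FPKM in shCtrl. The shNME7 libraries were nearly equal while the shCtrl libraries were apart from each other. Its log2 difference was -0.58 (SE 0.17, limma-trend adjusted p 0.728), and it was -0.38 without shCtrl 1 and -0.78 without shCtrl 2. An antisense gene, AC008622.2, overlaps 23.4% of its exon bases and was itself at or under 0.623 FPKM.

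Among the sodium-coupled glutamate and aspartate carriers, only SLC1A3 and SLC1A1 were expressed at 1 FPKM or more. SLC1A3, known from astrocytes, stood at 10.8 and 9.26 FPKM in shNME7, against 12.2 and 13.2 FPKM in shCtrl (log2 difference -0.32, SE 0.14, limma-trend adjusted p 0.780). SLC1A1, the form of neurons and epithelia, stood at 7.16 and 6.10 FPKM in shNME7, against 7.25 and 8.68 FPKM in shCtrl, where the higher shNME7 and the lower shCtrl library almost met. SLC1A2, SLC1A6 and SLC1A7 had 0 or 1 fragment in each library. A count of 0 allows up to 3 fragments, which is 0.177 to 0.202 CPM (counts scaled to library depth) in these libraries, counting error only.

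For uptake of arginine, lysine and ornithine, SLC7A1 was the main cationic amino acid transporter transcript. SLC7A1 (ENSG00000139514, chromosome 13, 29509410 to 29595688, minus strand) stood at 22.8 and 25.7 FPKM in shNME7, against 31.9 and 30.7 FPKM in shCtrl, with no overlap. The log2 difference was -0.35 (SE 0.14, limma-trend adjusted p 0.730). SLC7A2, the cationic carrier known from liver, stood at 4.11 ± 0.360 FPKM in shNME7 and 4.19 ± 0.390 FPKM in shCtrl, and its libraries overlapped. SLC7A4, a family member with no established substrate, had 2 to 6 fragments per library, and SLC7A3 and SLC7A14 had 0 in all libraries.

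Promoters were searched because amino acid response genes are known to carry a composite site for C/EBP and ATF proteins, whose core is written TGATGCAA here. RefSeq promoter windows (GRCh38.p14, 250 bases before to 50 after each start) were at hand for 32 of the 40 genes, in 54 windows. On either strand TGATGCAA was found for 3 of these, SLC1A4, SLC1A5 and SLC1A3, where 0.866% of 35116 windows and 1.08% of 27305 genes hold it. The looser TGATGNAA, which includes it and was chosen after the first search, was found for 6, adding SLC7A1, SLC38A1 and SLC3A2, where 3.62% of windows and 4.46% of genes hold it. All 6 were among the 13 members with a window whose shNME7 libraries lay below shCtrl, and 0 of the other 7 tested members with a window held it. The motifs were chosen with earlier results of these data known, so this split is a description and no test. The share of the motif among all genes with shNME7 below was not taken. The palindromic TGACGTCA was found in 0 members and in 1.85% of windows. A match is a description of letters, and no binding was measured. The RefSeq starts of SLC1A4, SLC1A5, SLC7A1 and SLC3A2 lie within 10 bases of a GENCODE release 29 start, while those of SLC38A1 and SLC1A3 lie 1185 and 9767 bases from the nearest, and which start these cells use was not measured. The stretches of 3 of the windows are shown, for genes described above whose RefSeq start lies near an annotated start. That start need not be the outer end of the gene. For SLC1A5 it is 46784814, inside the gene, which begins at 46788594 and has 6 annotated starts. The starts used for SLC1A4 and SLC3A2 also lie inside their genes, which have 4 and 21 annotated starts. SLC3A2 is not shown, as its match begins at base 38 of the transcript. The stretches are printed with the matched letters in capitals, 5′ to 3′ on the strand of the gene. They are chr2:64989299-64989418 (plus strand, match on the opposite strand, beginning 7 bases before the start), chr19:46784848-46784967 (minus strand, 97 bases before the start) and chr13:29595669-29595788 (minus strand, from base 8 of the transcript).
SLC1A4: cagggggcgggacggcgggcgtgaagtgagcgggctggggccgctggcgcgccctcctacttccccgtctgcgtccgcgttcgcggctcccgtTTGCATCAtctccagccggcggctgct
SLC1A5: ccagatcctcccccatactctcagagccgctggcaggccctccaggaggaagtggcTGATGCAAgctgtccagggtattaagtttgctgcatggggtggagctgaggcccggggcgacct
SLC7A1: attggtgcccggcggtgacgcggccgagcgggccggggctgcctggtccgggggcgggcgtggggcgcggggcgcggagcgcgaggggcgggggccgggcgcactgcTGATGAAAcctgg

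The SLC38 family of sodium-coupled neutral amino acid transporters had 8 of 11 genes tested, of which 7 were lower on average in shNME7 and 4 showed no overlap between groups, against 47.8% and 18.4% of all tested genes. SLC38A2 (ENSG00000134294, chromosome 12, 46358189 to 46372867, minus strand), the system A carrier known for its induction by amino acid shortage, was second only to SLC7A5 in level. It stood at 222 and 169 FPKM in shNME7 1 and 2, against 275 and 292 FPKM in shCtrl 1 and 2. The shCtrl libraries were close, and the shNME7 libraries were apart from each other but both below. The log2 difference was -0.55 (SE 0.18, limma-trend adjusted p 0.728), and it was -0.76 without shNME7 1 in limma-voom, where it passed (adjusted p 0.0152), over a range of 0.0152 to 1.00 in 18 alternatives. Without shNME7 2 it was -0.36 in limma-voom (adjusted p 0.920) and -0.35 in limma-trend.

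SLC38A1 (ENSG00000111371), the related system A carrier for glutamine, stood at 73.8 and 68.0 FPKM in shNME7, against 92.1 and 105 FPKM in shCtrl. Its log2 difference was -0.47 (SE 0.15, limma-trend adjusted p 0.728). The ratio of SLC38A2 to SLC38A1 overlapped between groups, at 3.01 and 2.48 in shNME7 and 2.98 and 2.78 in shCtrl. The third system A gene, SLC38A4, known from hepatocytes, had only 24 and 20 fragments in shNME7 and 9 and 20 in shCtrl.

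System N carriers move glutamine, asparagine and histidine in exchange for protons. SLC38A5 stood at 24.6 and 27.1 FPKM in shNME7, against 27.5 and 24.9 FPKM in shCtrl, and its groups overlapped (log2 difference -0.02, SE 0.14). SLC38A3, the system N gene known from liver, was lower in level, at 2.01 and 2.67 FPKM in shNME7, against 3.55 and 3.02 FPKM in shCtrl (log2 difference -0.36, SE 0.17, limma-trend adjusted p 0.795). With single libraries left out, it ran from -0.71 to -0.22. SLC1A5 and SLC38A5 thus differed in pattern, with their ratio at 2.39 and 2.13 in shNME7 and 3.66 and 3.07 in shCtrl.

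Lysosomal members lay within or near the spread of the libraries. SLC38A9, the lysosomal arginine sensor that signals to mTORC1, stood at 1.154 and 1.148 FPKM in shNME7, against 1.21 and 1.48 FPKM in shCtrl (log2 difference -0.12, SE 0.18). SLC38A7, a lysosomal glutamine exporter, averaged 6.45 ± 1.02 FPKM in shNME7 and 6.60 ± 0.360 FPKM in shCtrl. SLC36A1, the proton-coupled carrier of lysosomes, averaged 2.19 ± 0.690 FPKM in shNME7 and 2.06 ± 0.0261 FPKM in shCtrl. The last 2 overlapped between the groups. SLC36A4, a high-affinity carrier of proline and tryptophan in the same family, stood at 5.76 and 4.58 FPKM in shNME7, against 5.82 and 6.27 FPKM in shCtrl, where the 2 nearest libraries of the groups were almost equal. SLC38A10 averaged 11.5 ± 2.40 FPKM in shNME7 and 12.1 ± 2.38 FPKM in shCtrl, and SLC38A6 1.31 ± 0.371 FPKM in shNME7 and 1.16 ± 0.0489 FPKM in shCtrl, both with overlap. SLC36A2, SLC36A3, SLC38A8 and SLC38A11 had 0 to 2 fragments in any library.

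The glycine transporter gene SLC6A9 (ENSG00000196517) stood at 8.37 and 10.97 FPKM in shNME7, against 15.6 and 12.8 FPKM in shCtrl. Its groups did not overlap, the log2 difference was -0.51 (SE 0.18, limma-trend adjusted p 0.728), and it passed in 1 of 18 alternatives, limma-trend without shNME7 2 (-0.69, adjusted p 0.0438, over a range of 0.0438 to 1.00). Without shNME7 1 it was -0.34 in limma-trend (adjusted p 0.412). SLC6A15, a neutral amino acid transporter known from brain, averaged 5.60 ± 0.891 FPKM in shNME7 and 6.68 ± 0.891 FPKM in shCtrl, with overlap.

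All 3 SLC43 genes were tested. SLC43A1, a facilitative carrier of branched-chain and aromatic amino acids, stood at 5.78 and 4.80 FPKM in shNME7, against 8.66 and 6.92 FPKM in shCtrl (log2 difference -0.48, SE 0.17, limma-trend adjusted p 0.728). Its groups did not overlap, and the difference was -0.34 without shCtrl 1 and -0.62 without shCtrl 2. SLC43A2, a carrier of similar substrates, averaged 3.57 ± 1.12 FPKM in shNME7 and 3.88 ± 0.491 FPKM in shCtrl, and SLC43A3, which transports purine nucleobases rather than amino acids, averaged 24.5 ± 1.06 FPKM in shNME7 and 23.8 ± 0.863 FPKM in shCtrl, both with overlap. Exons of the gene AP000781.2 on the same strand cover 29.9% of those of SLC43A3, and AP000781.2 was at or under 0.148 FPKM.

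Counts were also taken by level. Of the 11 transporters with a mean of at least 10 FPKM, 10 had a lower mean in shNME7, where 44.1% of all 4871 genes at that level did. For 8 of the 11 the groups did not overlap with shNME7 the lower, against 16.2% of those genes. The median log2 difference of the 11 transporters was -0.42. Of the 13 below 10 FPKM, 10 had a lower mean, where 50.1% of 7995 genes at that level did. Their groups did not overlap for 6 with shNME7 the lower, against 19.7% of those genes, and for 1 with shNME7 the higher, against 17.2%, and the median was -0.12. Both shNME7 libraries were below and the difference was at least 0.3 in log2 for 11 of the 24, where this held for 5.9% of all tested genes.

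**Figure D3:**
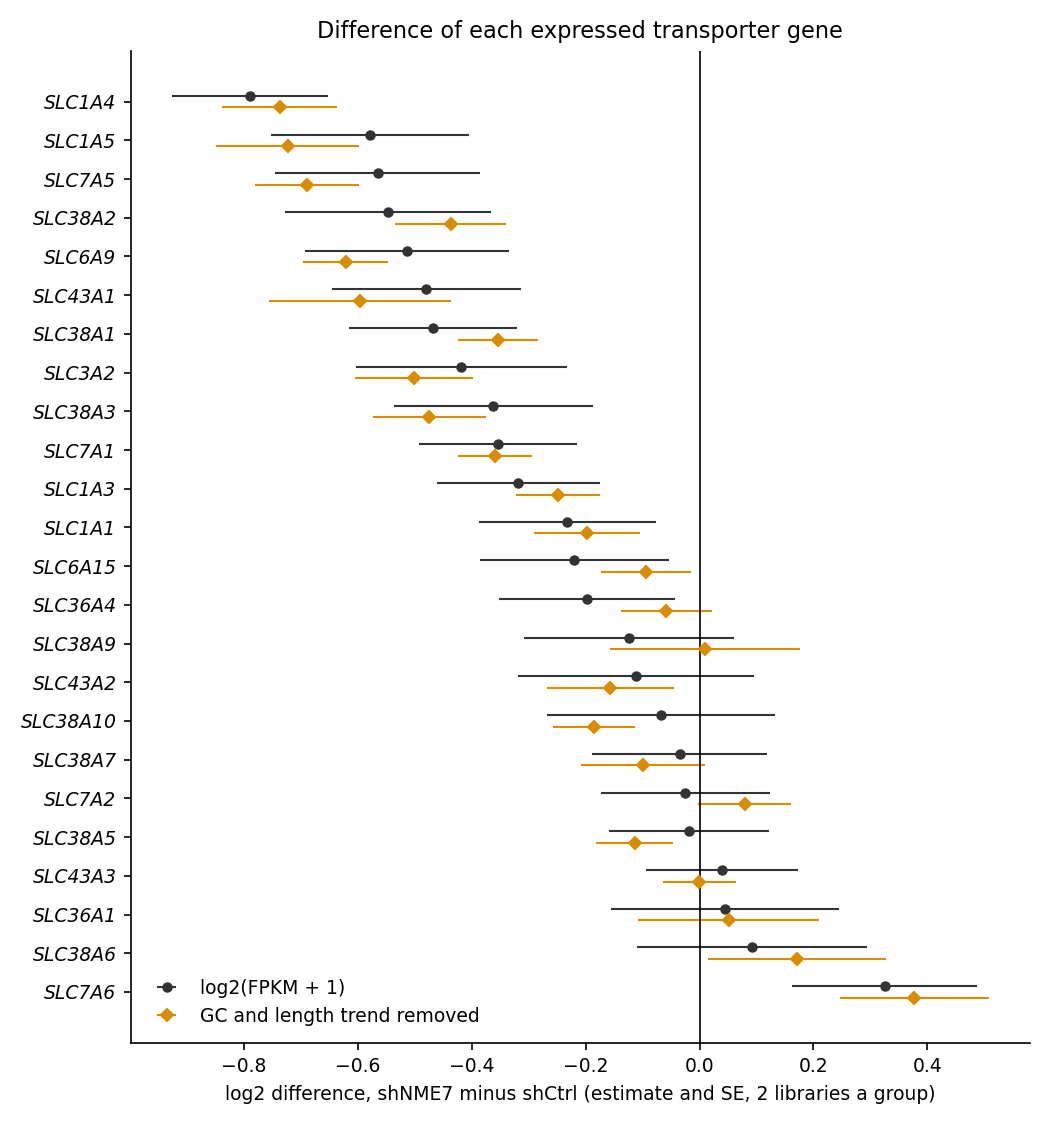
Log2 difference, shNME7 minus shCtrl, of each of the 24 tested transporter genes with its SE, on log2(FPKM + 1) in black and with a trend on GC content and length removed in orange (limma-trend, 2 libraries a group). SLC1A4 has the lowest estimate at -0.79 and SLC7A6 the highest at 0.32 on log2(FPKM + 1).

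The difference between the groups was related to GC content, which is given beside these values. Whether libraries of the same group also differed by GC content was not measured. Over 12857 genes the log2 difference had a Spearman rho of 0.41 with GC content, and over the 24 transporters rho was -0.24, as descriptions over genes that share the same 4 libraries. A trend on GC content and exon length was then removed from each library, after which rho was 0.025 over the 12857 genes and -0.52 over the 24 transporters. On that scale 19 of 24 transporters had a lower value in shNME7, as did 6299 of all 12866 tested genes. For 17 there was no overlap with shNME7 below, against 23.4% of all tested genes, and for 3 no overlap with shNME7 above, against 23.6%. The GC-rich SLC7A5, SLC1A5 and SLC6A9 moved to -0.69, -0.72 and -0.62, and the GC-poor SLC38A2 and SLC38A1 to -0.44 and -0.35. SLC1A4 stood at -0.74, and SLC36A4 and SLC38A9, which are among the most GC-poor members, came to -0.058 and 0.0095. The smallest adjusted p of a transporter was then 0.213 in limma-trend, shared by SLC7A5, SLC1A5, SLC1A4 and SLC6A9, and 0.0601 in limma-voom, for SLC7A5, so that none passed, where limma-voom called 0.0794% of all genes.

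**Figure D4:**
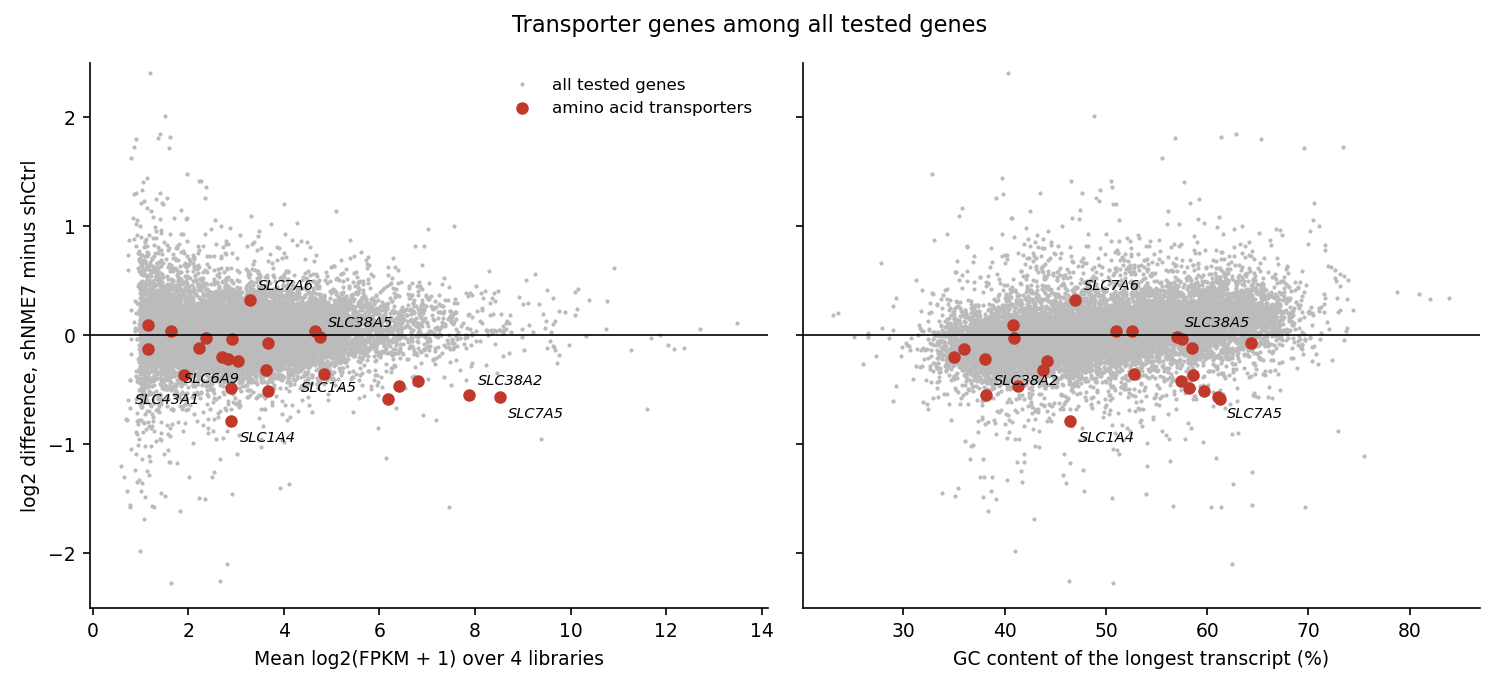
Log2 difference, shNME7 minus shCtrl, of all 12866 tested genes (grey) and the 24 tested transporters (red) against mean log2(FPKM + 1) on the left and against the GC content of the longest transcript on the right. The 6 red points at the highest levels lie below 0.

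Other genes of amino acid transport and sensing were compared by lists, also chosen with earlier results of these data known. Among other plasma membrane transporters and subunits, 3 of 11 were tested and 3 had a lower mean. The cystine exchanger SLC7A11, which also pairs with SLC3A2, stood at 10.2 and 6.71 FPKM in shNME7, against 22.2 and 24.9 FPKM in shCtrl, and passed in limma-voom (log2 difference -1.52, adjusted p 0.00561) but not in limma-trend (-1.40, adjusted p 0.320). The lysosomal exporters CTNS, for cystine, and PQLC2, for cationic amino acids, were both tested, with 1 lower and 1 higher mean and overlapping libraries.

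Mitochondrial amino acid carriers had 8 of 10 genes tested, 4 with a lower and 4 with a higher mean and a median log2 difference of -0.0023. The groups did not overlap for 3 of the 8 with shNME7 the higher, against 17.8% of all tested genes. For 2 they did not overlap with shNME7 the lower, against 18.4%. The largest differences were those of SLC25A29, a carrier of basic amino acids, at 4.72 and 6.58 FPKM in shNME7 against 4.23 and 3.32 FPKM in shCtrl, and SLC25A22, a glutamate carrier, at 12.7 and 16.6 FPKM in shNME7 against 10.97 and 11.1 FPKM in shCtrl. Neither passed in limma-trend or limma-voom.

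Of the genes by which mTORC1 reads amino acids, 29 of 32 were tested, 13 with a lower and 16 with a higher mean. The groups did not overlap for 8 of the 29 with shNME7 the higher, against 17.8% of all tested genes. For 3 they did not overlap with shNME7 the lower, against 18.4%. With the GC and length trend removed these counts were 11 and 4, against 23.6% and 23.4%. In this list limma-trend and limma-voom called 0 genes, where they called 0.0% and 0.106% of all tested genes. SESN2, which encodes a leucine sensor that is itself a stress-responsive gene, had the largest difference, at 12.3 and 8.85 FPKM in shNME7 against 25.1 and 18.6 FPKM in shCtrl (log2 difference -0.98, limma-trend adjusted p 0.553, limma-voom adjusted p 0.0783). LAMTOR2, a subunit of the lysosomal Ragulator complex, stood at 38.8 and 48.6 FPKM in shNME7 against 32.0 and 26.3 FPKM in shCtrl (log2 difference 0.57, limma-trend adjusted p 0.728).

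All 8 genes of the GCN2 and ATF4 list were tested and all 8 had a lower mean, 6 of them with no overlap, where 47.8% and 18.4% of all tested genes did so. The median log2 difference of the 8 was -0.50. Given how the lists were chosen, these counts are a description and no test. TRIB3, a pseudokinase induced by ATF4, was called in limma-voom (log2 difference -1.15, adjusted p 0.010), and not in limma-trend (-1.13, adjusted p 0.320), at 47.1 and 45.6 FPKM in shNME7 against 114 and 92.0 FPKM in shCtrl. ATF4 itself stood at 207 and 182 FPKM in shNME7, against 261 and 257 FPKM in shCtrl (log2 difference -0.41, limma-trend adjusted p 0.729).

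**Figure D5:**
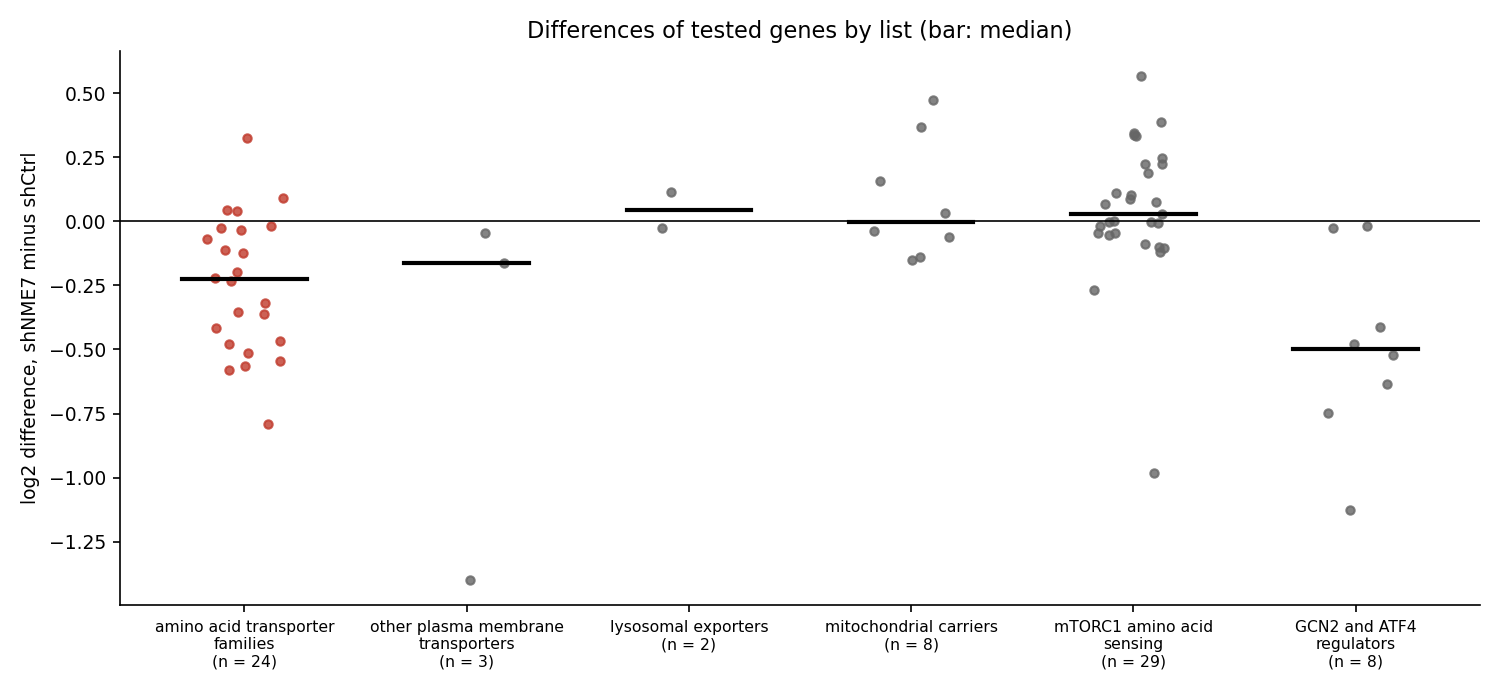
Log2 difference, shNME7 minus shCtrl, of every tested gene in the transporter families (red) and in 5 related lists (grey), with the median of each as a bar. The median is -0.23 for the 24 transporters, 0.03 for the 29 mTORC1 sensing genes and -0.50 for the 8 GCN2 and ATF4 regulators.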

How the data were processed

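The authors deposited 1 table of FPKM values per library, as the file headers name the unit. HISAT2 2.0.5 and build hg18 are listed per the submitters' processing notes, and no source used here gives the counting tool, its strand setting or its annotation. Every one of the 58735 IDs is in GENCODE release 29 (GRCh38), which gave names, exon lengths and coordinates. Multiplied by exon length, 100% of the values in each library came within 0.01 of a whole multiple of its step, so fragments could be recovered. Totals set from these are inferred, at 14877906 to 16991397 per library. The steps imply scaling totals of 15029145 to 16984433, which are not these fragment totals. They match a median-ratio size factor, the median over genes of a library's fragments relative to the geometric mean of all 4.

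limma-trend (limma 3.58.1, R 4.3.3) was run on log2(FPKM + 1), a scale that understates changes of low genes, for shNME7 minus shCtrl and a mean of at least 1 FPKM. The threshold was an adjusted p of 0.05 over all tested genes. limma-voom used TMM scaling and a mean of at least 10 recovered fragments. A loess curve (span 0.3) per library removed the trend on GC content and length. Both tests were also run on simulated data, which had no GC trend and so differ from these libraries. The members, lists and motifs were chosen with earlier results of these data known. All 40 members are named, and those at 1 FPKM or more have values, per library where the groups do not overlap. Each list gives its genes past the threshold, otherwise up to 2 with the largest difference and a mean of 5 FPKM or more in the higher group, besides SLC7A11 and ATF4. All 87 list and marker genes matched an ID. Between the libraries of a group the SD of log2 differences was 0.363 (shNME7) and 0.323 (shCtrl). No pair of libraries came within sampling noise, with a chi-square per degree of freedom of 14.0 to 43.8. The lowest value, 14.0, was between groups, for shNME7 1 and shCtrl 2. The pairs within a group stood at 15.1 (shCtrl) and 27.3 (shNME7), so over all genes the libraries did not sort by hairpin.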

Additional observations from a re-analysis of the deposited data

How the results depend on the processing

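Of the 24 tested transporters, 15 kept their direction under every alternative run and 9 did not. With the GC and length trend removed, SLC43A3 was at -0.00027 (limma-trend) and -0.0065 (limma-voom), SLC7A2 at 0.079 and 0.096 on the same scales, and SLC38A9 at 0.0095 (limma-trend). With single libraries left out of limma-trend, differences ranged from -0.0031 to 0.082 for SLC43A3, -0.10 to 0.052 for SLC7A2, -0.089 to 0.053 for SLC38A5, -0.26 to 0.13 for SLC38A10, -0.17 to 0.10 for SLC38A7, -0.36 to 0.14 for SLC43A2, -0.072 to 0.26 for SLC38A6 and -0.18 to 0.27 for SLC36A1. In limma-voom, SLC43A3 came to -0.012 without shCtrl 2 and -0.018 without shNME7 2, SLC7A2 to 0.047 and 0.044 in that order, SLC38A5 to 0.046 without shCtrl 1 and 0.039 without shNME7 1, SLC38A10 to 0.12 and 0.13 in that order, and SLC36A1 to -0.29 without shNME7 2. Without shNME7 1, limma-voom also gave 0.11 for SLC38A7, 0.17 for SLC43A2 and -0.15 for SLC38A6. The cause was not tested. A lone library is there assumed to vary like the other group.

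Genes called numbered 0 in limma-trend, 1 once its GC and length trend was removed, 16 in limma-voom, 27 with upper-quartile scaling and 12 in limma-voom after that removal. Leaving out a library gave 112 to 632 calls in limma-trend. In limma-voom it gave 37 without shCtrl 1, 31 without shCtrl 2, 406 without shNME7 1 and 41 without shNME7 2. Transporters called numbered 0, 1 with upper-quartile scaling, 0 to 2 with a library left out of limma-trend, and in limma-voom 2 without shNME7 1 and 1 without shNME7 2. Separated transporters with shNME7 the lower numbered 14. They numbered 12 with upper-quartile scaling or at a mean of at least 5 FPKM, 15 with no filter, and 16 to 20 with a library left out. Fewer libraries have to separate in the last case. The share of all genes was taken only for limma-trend at 1 FPKM or more, before and after removal of the GC and length trend. The other counts of separated transporters in this section, lower or higher, have no such share beside them. Counts in limma-voom are of 27 transporters. Separated transporters with shNME7 the higher numbered 1, and 3 with the trend removed (5 in limma-voom). They numbered 2 with no filter, in limma-voom or with upper-quartile scaling, and 1 to 5 with a library left out of limma-trend. In limma-voom they numbered 3 without either shCtrl library, 6 without shNME7 1 and 4 without shNME7 2.

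The replicate block gave 122 called genes in limma-trend and 33 in limma-voom, 0 of them transporters, and 2 transporters separated with shNME7 the higher in limma-voom. Same-numbered libraries deviated in opposite directions (r = -0.347 over 12866 genes, which are not independent), so the numbers were not taken to pair them, and the crossed replicate block, added after seeing the data, called 0 genes. The looser motif and limma-voom after removal of the GC trend were also added after seeing the data. Low genes are limited by their fragment counts.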
